A study of Nothobranchius furzeri with 20 samples.

Results

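Rotenone blocks complex I of the mitochondrial respiratory chain, the enzyme that passes electrons from NADH to ubiquinone. The comparison described here is the step between its 2 lowest doses in liver of Nothobranchius furzeri, the turquoise killifish, which lives for months in seasonal ponds. It sets 5 libraries of 9-week males at 1% of the LC50 against 5 libraries of 9-week males at 0.1% of the LC50, where the LC50 is the median lethal concentration. These 10 of the 20 libraries of the series were chosen by the age and dose in their labels, and all genes with enough counts were described. All 10 came from the strain MZM-04/10p and from total liver RNA. The other 10 libraries were 9-week males at 10% and 27-week males at 1% of the LC50. Both groups compared had received rotenone and no group was labelled as untreated, so the comparison is between doses and not with unexposed fish. The route and length of exposure, and whether a library held RNA of 1 fish or several, do not appear in the labels.

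As background, liver draws much of its ATP from oxidative phosphorylation, takes up and metabolises foreign compounds, and secretes most plasma proteins. A block of complex I lowers the oxidation of NADH and can raise the release of reactive oxygen species, and cells can turn to glycolysis for ATP. Which of these processes the genes below belong to is not known here. Of the 26739 gene identifiers in the tables, 0 matched an entry of RefSeq for assembly NfurGRZ-RIMD1, and the files pair no identifier with a name. Genes are therefore given by identifier, without a position, a sequence or a role, at most 2 in each direction, and the labelled tissue could not be checked against liver markers.

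Depth per library was 25.4 M to 33.9 M gene counts (M, mega). Replicate 5 at 1% stood apart: Spearman's rho across genes was 0.798 to 0.831 between it and the other libraries at 1% and 0.736 to 0.773 between it and the libraries at 0.1%. The other 4 libraries at 1% correlated with each other at 0.922 to 0.957, and with the libraries at 0.1% at 0.834 to 0.946. Among the libraries at 0.1% rho ran from 0.860 to 0.974. The lowest values there belonged to replicate 4, with 0.860 to 0.896. Expressed as log2 CPM (counts per M counts), a gene varied among libraries with a median SD of 0.62 at 1%, 0.38 at 1% without replicate 5, and 0.42 at 0.1%. The results that rest on this replicate are therefore also given without it. All libraries at 0.1% were deposited in a table of their own, so that the dose and the table cannot be told apart.

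At 1% of the LC50, 1091 of 15411 genes tested (7.08%) had changed relative to 0.1%, by edgeR's quasi-likelihood test at an adjusted p under 0.05. Of these, 659 (4.28% of genes tested) were higher and 432 (2.80%) lower at 1%. An unadjusted p under 0.05 was found for 23.7% of genes. Among the genes that rose, the median log2 change was 1.42 (quartiles 1.14 and 1.90). Among those that fell, the median size of the log2 change was 1.62 (quartiles 1.16 and 2.33). A change of 4-fold or more was seen in 140 of the 659 genes that rose (21.2%) and in 150 of the 432 that fell (34.7%). A change of 8-fold or more was seen in 26 and 44 genes. Without replicate 5 at 1%, the median log2 change of the 659 genes was 1.31 and the median size of that of the 432 was 1.53. Over all genes tested, the median log2 change was -0.02 and the middle range ran from -0.49 to 0.44. The scaling between libraries centres these changes, so their median cannot show whether all genes shifted together. A fitted change of 2-fold or more, called or not, was present in 18.0% of genes.

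Without replicate 5 at 1% the count of calls was 1591 of 15689 genes tested, with 924 higher and 667 lower at 1%. Of the 1091 genes, 1026 were among these calls. Among the 924 genes the median log2 change was 1.19, and among the 667 its median size was 1.22. A change of 4-fold or more was seen in 114 of the 924 genes and in 140 of the 667. The lists of genes differ between the fits, so these sizes and those above do not describe the same genes. Each fit without 1 library tested between 15519 and 15748 genes. Leaving out other single libraries lowered the count by over 1.5 times, to 309 without replicate 5, 517 without replicate 1, 582 without replicate 3 and 702 without replicate 2 at 0.1%, and to 435 without replicate 4 and 559 without replicate 2 at 1%. Without replicate 5 at 0.1%, the 309 calls were 28.3% of the 1091 genes. With all 20 libraries in the fit, 19.4% of 16516 genes passed, or 3204, and all 1091 genes were again among them. That fit shares its estimate of each gene's spread with the groups at 10% and at 27 weeks. In the bulk tissue, fewer cells of a type and less RNA per cell cannot be told apart.

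**Figure D1:**
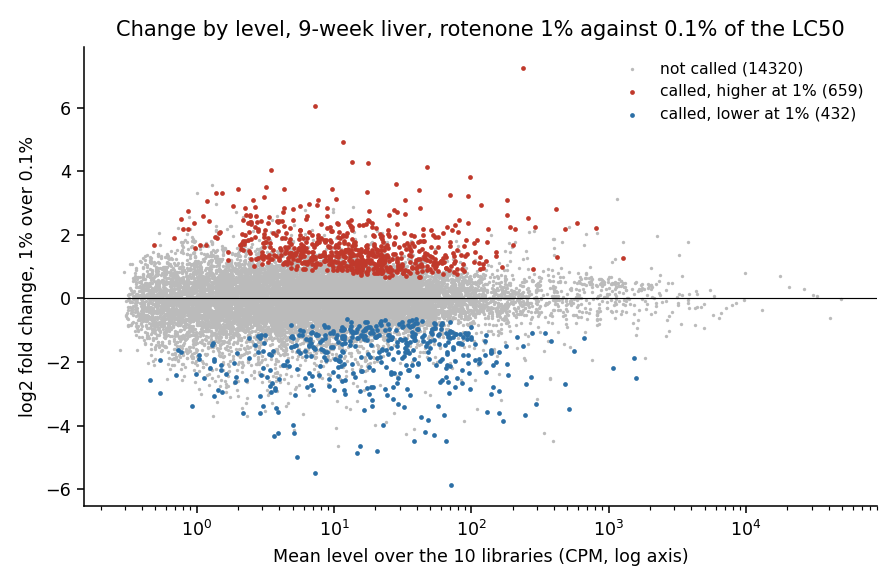
Each point is 1 of 15411 genes, with its mean level over the 10 libraries in CPM on a logarithmic axis and its log2 fold change at 1% over 0.1% of the LC50. The 659 genes called higher and the 432 called lower at 1% spread over levels from under 1 CPM to over 1000 CPM, and most of them lie between 1 and 100 CPM.

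The calls lay mostly in genes of intermediate level. Between 10 and 100 CPM, 638 of 6184 genes (10.32%) were called, 375 of them higher and 263 lower at 1%. Between 1 and 10 CPM, 366 of 6694 genes (5.47%) were called, with 245 higher and 121 lower. Between 100 and 1000 CPM the balance was the other way, with 30 higher and 37 lower among 807 genes (8.30% called). Under 1 CPM, 8 genes were higher and 8 lower among 1568 (1.02% called). The median standard error of the log2 change was 0.55 under 1 CPM, 0.41 between 1 and 10 CPM and 0.29 between 10 and 100 CPM. It was 0.34 between 100 and 1000 CPM and 0.37 at 1000 CPM or more. The precision was thus highest between 10 and 100 CPM. The share called was again highest between 10 and 100 CPM (14.14%) and lowest under 1 CPM (1.85%) without replicate 5 at 1%.

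**Figure D2:**
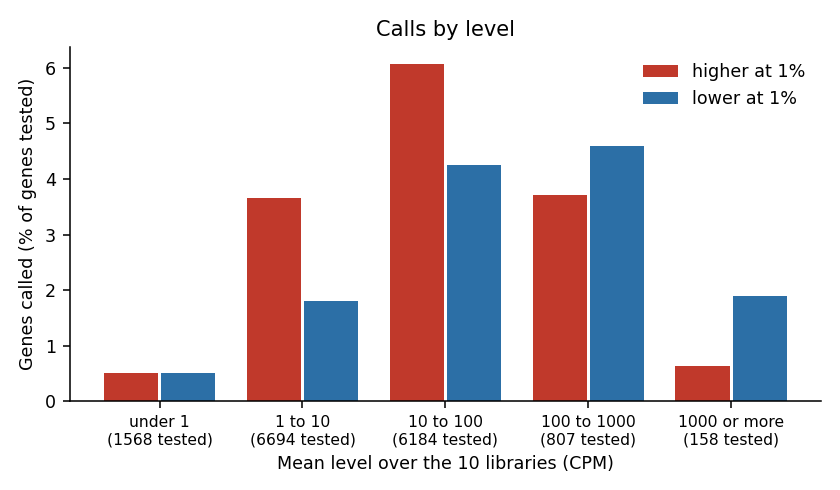
Bars give the percentage of genes tested that were called higher (left bar) or lower (right bar) at 1% of the LC50, in 5 classes of mean CPM over the 10 libraries. The share called is highest between 10 and 100 CPM and lowest under 1 CPM.

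Of 158 genes at 1000 CPM or more, 4 were called (2.53%, against 7.08% of all genes tested), 1 higher and 3 lower at 1%. A fitted change of 2-fold or more was present in 15 of the 158 (9.49%, against 18.0% of all genes tested), and 11 of these did not pass the test. Of the 10 most abundant genes at each dose, 9 were the same, and of the 100 most abundant, 83 were the same. Among the 11 genes in either list of 10, log2 changes lay between -0.61 and 0.80 and none was called. Among the 117 genes in either list of 100, the largest log2 change was 3.13 with an SE of 0.88, in a gene just over the threshold (edgeR, adjusted p = 0.0531). That gene had 2250, 1733, 902, 2191 and 3158 CPM at 1%, against 19.6, 846, 140, 98.9 and 61.7 CPM at 0.1%, and its groups did not overlap. The abundant gene that rose had 1350, 2414, 1357, 2282 and 1540 CPM in the libraries at 1%, against 719, 949, 930, 493 and 620 CPM in those at 0.1%. Its groups did not overlap, and its log2 fold change was 1.27 with an SE of 0.30 (edgeR, adjusted p = 0.0270). The abundant gene with the largest fall had 109, 724, 985, 297 and 253 CPM at 1%, against 4109, 1529, 2399, 1743 and 3734 CPM at 0.1%. Every library at 1% was below every library at 0.1%, with a log2 fold change of -2.51 with an SE of 0.58 (edgeR, adjusted p = 0.0255). For the other two that fell, the log2 changes were -2.19 ± 0.43 (edgeR adjusted p = 0.0152) and -1.88 ± 0.50 (0.0445). Only the gene at -2.19 passed in all 10 fits without 1 library (edgeR adjusted p of at most 0.0449). The gene that rose lost its call without replicate 2 or 4 at 1% or replicate 1, 3 or 5 at 0.1% (adjusted p up to 0.0852), and that at -2.51 without replicate 4 at 1% or replicate 1, 3 or 5 at 0.1% (up to 0.0767). That at -1.88 passed only without replicate 3 or 5 at 1% (otherwise up to 0.120). In the fit without replicate 5 at 1%, the log2 change was 1.32 in the gene that rose, and -2.35, -2.38 and -1.62 in those at -2.51, -2.19 and -1.88.

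In the composition of whole libraries, the doses differed by less than the spread between libraries. The 100 most abundant genes of each library held 50.6% ± 3.95 of its counts at 1% and 50.5% ± 6.10 at 0.1% (SD, n = 5 each; two-sided exact permutation test, p = 0.976). The effective number of genes, the exponential of the Shannon entropy of the shares of counts, was 856 ± 207 at 1% and 899 ± 333 at 0.1% (SD, n = 5 each; exact permutation p = 0.865). After each library was thinned to 25.4 M counts, 19295 ± 508 genes were detected at 1% and 19594 ± 393 at 0.1% (SD, n = 5 each; exact permutation p = 0.325). The smallest p such a test can give here is 0.00794, and adjusted over the 3 measures all were 0.976. Without replicate 5 at 1% the differences, taken as 1% minus 0.1%, were -1.02 percentage points, 18.2 effective genes and -141 detected genes (exact permutation p = 0.794, 0.873 and 0.635). Within each dose the libraries varied widely. The effective number of genes ran from 608 to 1077 among the libraries at 1%, and from 570 to 1368 among those at 0.1%.

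The genes that were called made up a small part of all counts. Those that rose held 3.17%, 2.79%, 2.44%, 4.02% and 2.72% of counts in the libraries at 1%, against 0.895%, 1.02%, 0.941%, 1.36% and 0.917% in those at 0.1%. Those that fell held 1.12%, 0.964%, 1.59%, 0.931% and 0.540% at 1%, against 4.37%, 2.41%, 2.49%, 3.94% and 4.55% at 0.1%. The genes were called on these same libraries, so the shares describe their weight and are not a test.

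The named genes were taken from called genes whose groups did not overlap, with a mean of 10 CPM or more over the 10 libraries. Among these, the largest rises were those of Nfu_g_1_001720 and Nfu_g_1_007455. Each named gene met that level only through the dose at which it was high. Nfu_g_1_001720 had 24.2, 34.9, 8.66, 34.0 and 10.7 CPM at 1%, against 0.292, 1.57, 1.52, 0.152 and 0.240 CPM at 0.1%. Replicates 3 and 5 at 1% were the lowest of their group and still above every library at 0.1%. The means were 22.5 ± 12.4 CPM at 1% and 0.754 ± 0.723 CPM at 0.1% (SD, n = 5 each), and the log2 fold change was 4.93 with an SE of 0.76 (edgeR, adjusted p = 0.00596).

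Nfu_g_1_007455 had 33.4, 32.1, 19.0, 68.7 and 14.2 CPM at 1%, against 2.51, 1.57, 0.421, 2.51 and 1.57 CPM at 0.1%. Replicate 4 was highest at 1% and replicate 3 lowest at 0.1%. The means were 33.5 ± 21.4 CPM at 1% and 1.72 ± 0.863 CPM at 0.1% (SD, n = 5 each), and the log2 fold change was 4.27 with an SE of 0.56 (edgeR, adjusted p = 0.00468).

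By the same rule the largest falls were those of Nfu_g_1_000436 and Nfu_g_1_000348. Nfu_g_1_000436 had 0.397, 0.716, 1.68, 1.92 and 0.112 CPM at 1%, against 57.2, 10.5, 17.7, 24.9 and 32.3 CPM at 0.1%. Replicate 5 at 1% held 2 counts of it, the fewest of the group, and replicate 1 at 0.1% held 1570, the most. The means were 0.966 ± 0.797 CPM at 1% and 28.5 ± 18.0 CPM at 0.1% (SD, n = 5 each), and the log2 fold change was -4.86 with an SE of 0.71 (edgeR, adjusted p = 0.00539).

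Nfu_g_1_000348 had 0.719, 0.791, 2.95, 1.35 and 0 CPM at 1%, against 50.5, 17.32, 14.4, 25.8 and 40.6 CPM at 0.1%. Replicate 3 was the highest at 1%, and replicate 5 held no count. Its means were 1.16 ± 1.11 CPM at 1% and 29.7 ± 15.4 CPM at 0.1% (SD, n = 5 each), with a log2 fold change of -4.65 with an SE of 0.79 (edgeR, adjusted p = 0.00869). In both genes replicates 1 and 5 were the highest libraries at 0.1%. Without replicate 5 at 1%, the log2 changes of the 4 genes were 5.13 for Nfu_g_1_001720, 4.47 for Nfu_g_1_007455, -4.60 for Nfu_g_1_000436 and -4.35 for Nfu_g_1_000348 (edgeR adjusted p of at most 0.00761).

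**Figure D3:**
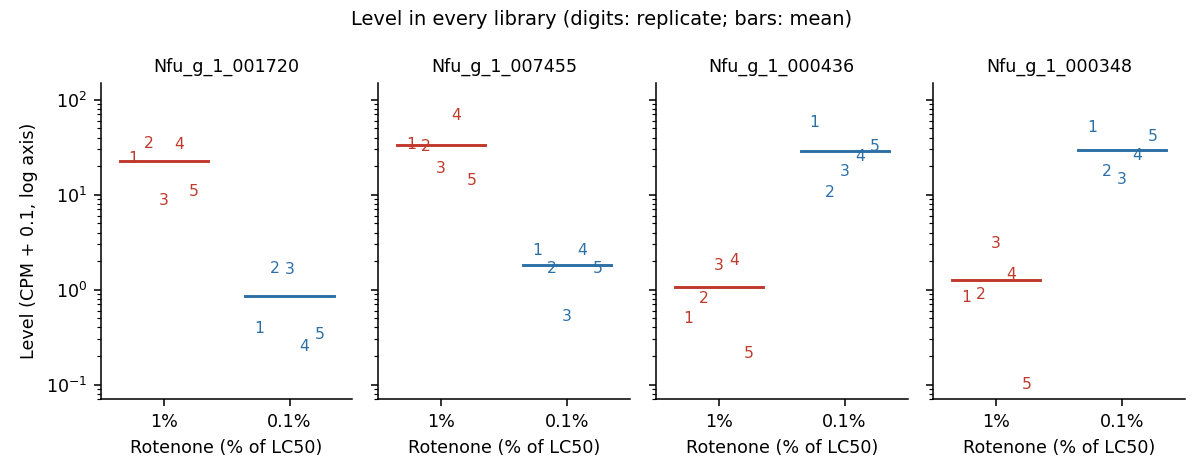
Level of 4 genes in every library at 1% (left of each panel) and 0.1% of the LC50 (right), in CPM plus 0.1 on a logarithmic axis. Digits give the replicate and bars the mean of 5 libraries. In each panel the groups are apart, as the rule that chose these genes required.

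In the groups at other doses and ages, on the CPM scale of all 20 libraries, Nfu_g_1_001720 ran from 0.335 to 0.632 CPM at 10% and from 11.75 to 50.01 CPM in 27-week fish at 1%. Nfu_g_1_007455 ran from 0.483 to 1.34 CPM at 10% and from 36.8 to 83.1 CPM in the 27-week fish. Both were thus low at 0.1% and 10% and high in each group at 1%. Nfu_g_1_000436 ran from 4.65 to 15.4 CPM at 10% and from 1.32 to 11.4 CPM at 27 weeks, and Nfu_g_1_000348 from 5.20 to 18.29 CPM and from 1.25 to 6.87 CPM. These falling genes were at intermediate levels at 10%, with medians of 9.67 and 8.75 CPM. In the 27-week fish at 1% their medians were 7.37 and 2.175 CPM, so Nfu_g_1_000436 was at an intermediate level there as well.

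The 20 genes with the largest rise by this rule, out of 338 that met it, had log2 changes of 2.54 to 4.93. Their mean levels were 22.5 to 723 CPM at 1% (median 67.0), against 0.754 to 104 CPM at 0.1% (median 7.27). In 9 of the 20, replicate 5 was the highest library at 1%, and in 14 replicate 3 was the lowest. The 20 genes with the largest fall, out of 271, fell by 3.32 to 4.86 on the log2 scale. These had means of 0.966 to 85.7 CPM at 1% (median 5.80), against 28.5 to 947 CPM at 0.1% (median 95.9). In 16 of them replicate 5 was the lowest library at 1%, and in 13 replicate 3 was the highest. Of the 20 that rose, 18 passed without replicate 5 at 1%, with log2 changes of 1.95 to 5.13 over the 20. All 20 that fell passed without it, with sizes of 3.02 to 4.60.

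The same libraries marked the ends of the whole list of calls. Of the 659 genes that rose, replicate 5 was the highest library at 1% in 334 (50.7%) and replicate 4 in 251 (38.1%), while replicate 3 was the lowest in 340 (51.6%). Of the 432 that fell, replicate 5 was the lowest at 1% in 224 (51.9%) and replicate 3 the highest in 203 (47.0%). Over all genes tested, replicate 5 was the highest in 34.4% and the lowest in 36.7%, and replicate 3 the highest in 14.9% and the lowest in 15.9%. Replicate 4 at 1% was the highest in 20.0% of all genes tested. At 0.1%, replicate 5 was the highest library in 170 of the 432 genes that fell (39.4%) and the lowest in 225 of the 659 that rose (34.1%), against 14.5% and 14.4% of all genes. Replicate 3 at 1% thus stood nearest to the 0.1% libraries on the called genes.

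Genes whose ranges did not overlap between the 5 libraries at 1% and the 5 at 0.1% made up 11.0% of those tested, or 1695. Of these, 880 (5.71%) were higher and 815 (5.29%) lower at 1%. Of the called genes, 555 of the 659 that rose (84.2%) and 384 of the 432 that fell (88.9%) did not overlap. Calls and ranges come from the same libraries, so these 2 shares are descriptions and not a test of the calls. Without replicate 5 at 1%, 2198 genes did not overlap between 4 and 5 libraries. A range over fewer libraries cannot be wider, and the count was above 1695 whichever library was left out, from 1749 to 2489.

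Some genes had counts in all libraries of 1 dose and none in those of the other. At 1% only, there were 6 such genes, with 6 to 17 counts summed over the 5 libraries. At 0.1% only, there were 6, with 5 to 216 summed counts. All 12 were under the filter on low counts and so were not tested. The gene with 216 counts had 22, 1, 10, 123 and 60 counts in the libraries at 0.1% and none at 1%, which makes it at least 72.1-fold lower at 1% against a floor of 3 counts over the group. The floor covers counting error only, and replicate 4 held most of its counts.

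The number of calls depended on single libraries at both doses. Beside the counts given above, without replicates 1 and 3 at 1% or replicate 4 at 0.1% it was 847, 1080 and 1060. Between 52.9% and 65.3% of calls were higher at 1% in the 10 fits without 1 library, against 60.4% with all 10 libraries. Of the 1091 genes, 305 passed in every fit without 1 library, 184 higher and 121 lower at 1%. Of those, 301 also passed in all 8 alternatives that kept every library. The 182 genes among these that rose had a median log2 change of 1.87, and the 119 that fell had a median size of 2.19. Passing repeated fits of the same libraries favours large changes, so these sizes are descriptions and not a test.

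**Figure D4:**
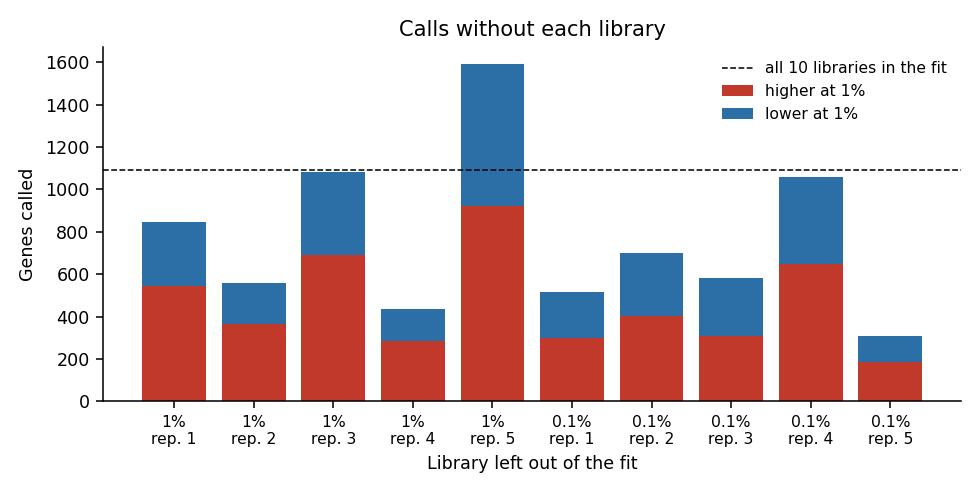
Bars give the genes called higher (lower part) and lower (upper part) at 1% of the LC50 when the library named below is left out of the fit, and the dashed line marks the 1091 calls with all 10 libraries. The count is highest, at 1591, without replicate 5 at 1% and lowest, at 309, without replicate 5 at 0.1%.

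Each library was also set against the genes called without it. Over the 924 genes called higher without replicate 5 at 1%, that replicate lay a median of 1.31 above the mean of the 0.1% libraries (log2 of CPM plus 0.1), where the other 4 libraries at 1% averaged 1.17. It lay on the same side as these in 85.3% of those genes. For the 667 called lower the values were -1.85 for replicate 5 and -1.21 for the others, with 93.6% on the same side. Replicate 3 at 1% reached 0.86 over the genes called higher without it, where the other 4 averaged 1.46, and -1.08 against -1.77 over those called lower. For the remaining 8 libraries, between 94.4% and 100% of calls lay on the same side in either direction. The libraries of the other dose had a part in choosing these genes and are also the reference, which can raise these shares. The same share over all genes tested is not given here, so the shares are descriptions.

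The called genes were also followed into the other groups. The median over the 659 genes of log2 CPM (plus 0.1) was 2.613 to 3.004 in the libraries at 0.1%, 3.89 to 4.73 at 1% and 2.72 to 3.10 at 10%, and it was 3.80 to 4.06 in the 27-week libraries at 1%. For the 432 genes that fell it was 4.56 to 5.22 at 0.1%, 2.85 to 3.57 at 1%, 4.40 to 4.74 at 10% and 3.54 to 3.81 at 27 weeks. Without replicate 5, the libraries at 1% ran from 3.89 to 4.57 for the 659 genes and from 3.14 to 3.57 for the 432. Over all genes tested the same medians stayed within 2.87 and 3.12 in all 20 libraries. The groups at 10% and 27 weeks took no part in choosing the genes.

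Gene length was not used to choose the genes, and it is described here without a test. The length that the authors used for each gene was recovered for 15375 of the genes tested. Of all recovered lengths 50.8% were multiples of 3, so the gene models may mix coding and whole transcript lengths, and the lengths are those of the models. Its median was 2778 bases in genes that rose, 3984 bases in genes that fell and 2832 bases over all genes. Between 10 and 100 CPM the medians were 3064 bases for 375 genes that rose, 4512 for 263 that fell and 3456 over all. In the same order they were 2127, 2847 and 2442 between 1 and 10 CPM. Between 100 and 1000 CPM they were 3104, 4632 and 2807, so genes that rose were longer than all genes there. With 8 called genes in each direction, they were 1566, 1795 and 2283 under 1 CPM. At 1000 CPM or more, with only 1 gene that rose and 3 that fell, they were 7075, 1218 and 1997. Divided into 5 classes of equal size by length, the shortest genes (up to 1176 bases) had a median log2 change of 0.12, with 4.39% called higher and 1.69% lower at 1%. In the longest (5520 bases or more) the median was -0.20, with 2.60% called higher and 4.42% lower. The share called higher had no steady course with length: it was 3.94%, 5.40% and 5.11% in the classes between, against 4.28% over all genes, while the share called lower was larger in each longer class. The classes also differed in level. From shortest to longest, the median log2 of mean CPM was 2.41, 2.84, 3.21, 3.41 and 3.80. The part of level in these shares was not tested.

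The difference between the shortest and the longest class was largest in replicate 5 at 1%. From shortest to longest, that replicate's median deviations (log2) were 0.19, 0.09, 0.27, 0.00 and -0.41, without a steady course. Its level in the shortest class, taken as the deviation from the mean of the 10 libraries, exceeded that in the longest by 0.61 (log2). The other libraries at 1% had differences of 0.10, -0.01, -0.02 and 0.10, against -0.10, -0.05, -0.12, -0.11 and -0.22 in those at 0.1%. Every library at 1% was thus above every library at 0.1% in this measure. Without replicate 5 the median log2 change was 0.03 in the shortest and -0.14 in the longest class, with 3.15% and 5.69% called lower. The share called higher was then 6.27%, 6.28%, 6.54% and 6.50% in the 4 shorter classes and 4.36% in the longest. The part of gene length in the calls was not tested.

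**Figure D5:**
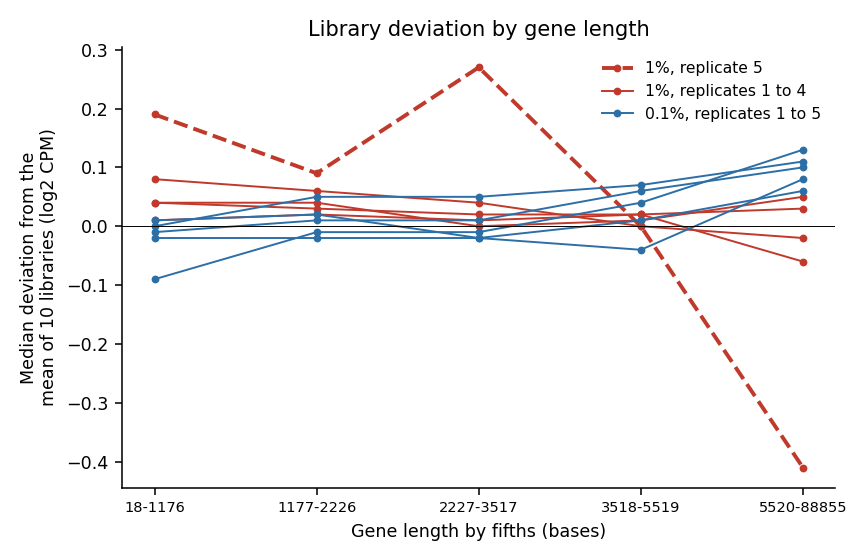
Lines give, for each library, the median deviation of log2 CPM from the mean of the 10 libraries in 5 classes of gene length. Replicate 5 at 1% of the LC50 lies at 0.19 in the shortest and -0.41 in the longest class, and is highest, at 0.27, in the middle class. The other libraries lie between -0.09 and 0.13.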

How the data were processed

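Livers were profiled by RNA sequencing from total RNA with a TruSeq RNA kit, per the labels' protocols. The values used are raw counts, which the authors deposited for each gene, with the 0.1% libraries in a table of their own. The submitters' processing notes name featureCounts 1.4.6-p4, STAR 2.4.1d and CASAVA 1.8.2. Their settings, the build, the annotation and strandedness were not given in the sources used here, so counts of overlapping, antisense and near-identical genes are uncertain. Another 10 columns belong to no listed sample and were not used. The authors also deposited tables labelled RPKM, handled here as a score, because the library totals in them were recycled down the rows with a period of 35. They served only to recover gene lengths, for 16990 genes with 20 or more counts in a library. The divisors matched the totals to within 4.11e-06, and 62.7% of lengths lay within 0.1 of a whole number.

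Counts of both doses were joined by identifier and tested in R 4.3.3 with edgeR 4.0.16 (filterByExpr by dose, TMM normalization, quasi-likelihood F-test, two-sided, Benjamini-Hochberg adjustment over all genes tested at 0.05). The fit held the 10 libraries compared, because earlier results of these data showed that the spread differed between groups. Both doses compared also differed in spread (median SD of log2 CPM 0.62 at 1% and 0.42 at 0.1%). The fit shares its estimate of each gene's spread between them, so it does not remove unequal spread. CPM were scaled by TMM factors over these libraries, and log2 CPM used a prior count of 2 unless said otherwise. Standard errors were derived from the F statistic and the fold change. Alternatives were all 20 libraries, DESeq2 1.42.0 (its size factors and its Wald test), upper-quartile factors, limma 3.58.1 voom with and without library weights, no filter, 1 CPM in at least 5 libraries, and each library left out. Named genes were the 2 largest rises and 2 largest falls among genes called at a mean of 10 CPM or more whose groups did not overlap; genes described without an identifier were chosen after their values were seen. The comparison, the rules and the tests were chosen with earlier results of these data known. Gene and marker lists could not be applied, since no identifier has a name.

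Replicates were numbered in accession order, which pairs nothing, and no label gives a batch. Since separate fish are not stated, p-values cover only library-to-library spread, which may be technical. The 20 pairs of replicates differed by 80.4 to 498 in chi-square per degree of freedom, far over sampling noise.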

Additional observations from a re-analysis of the deposited data

Results flagged for a closer look

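Of 26 groups of 5 library values examined, 3 held a library whose gap to the next exceeded 0.71 of the group's range. For independent normal values, that limit would flag about 1 group in 20. The groups here are measures of the same libraries and not independent, so the count of 3 is a description and not a test. At 1% of the LC50, replicate 5 had a difference of 0.61 (log2) between the shortest and the longest of 5 length classes of genes, the next library being at 0.10. The same replicate had the lowest mean rho with its own group, 0.810, where the others had 0.907 to 0.916. At 0.1%, the genes called higher at 1% held 1.36% of counts in replicate 4, where the other libraries at 0.1% had 0.895% to 1.02%.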

How the results depend on the processing

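The count of 1091 calls was 3204 with all 20 libraries in the fit, 3365 with these but replicate 5 at 1% (an alternative chosen after the data were seen), 2257 with DESeq2's Wald test and 2395 with limma voom and library weights. It lay between 309 and 1591 with 1 library left out, where fewer libraries also lower the power of the test. It stayed within 1.5 times under the other 5 alternatives. The median log2 change over all genes, -0.02, was -0.05 with DESeq2's Wald test, -0.07 with limma voom, -0.06 with no filter and between -0.05 and 0.02 with 1 library left out; the cause was not tested. The 4 named genes passed under each of 18 alternatives, with adjusted p of at most 0.0330. They had been chosen as the largest changes in these same libraries, so their passing again is not a separate test. The 3 measures of library composition stayed over the threshold. Of the 4 called genes at 1000 CPM or more, 3 lost their call without some single libraries, in 5, 8 and 4 of 10 fits. No paired analysis was possible because the replicate numbers only name libraries. Among the level classes, genes under 1 CPM had the largest median standard error of a log2 change, 0.55, and the part of depth in this was not tested.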
